A study of Mus musculus with 16 samples.

Results

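The nuclear genes of oxidative phosphorylation were followed through mouse oocyte growth. Members were taken by their symbols in the table of RNA levels, that is, symbols beginning with Nduf, Uqcr, Atp5 or Cox4 to Cox8, and Sdha to Sdhd, with pseudogene names left out. The rule used names only and no measured value, though earlier results of these data were known when it was set. It gave 90 of 25965 genes, of which 36 encode subunits of complex I, 4 encode complex I assembly factors, and 4, 8, 20 and 15 encode subunits of complexes II, III, IV and V. Ndufa4 and its relative Ndufa4l2 carry complex I names and were counted with complex IV, where the Ndufa4 protein is now placed. The remaining 3 genes, Cox4nb, Atp5s and Atp5sl, are named after a complex but do not encode a subunit of it.

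Oxidative phosphorylation takes place at the inner mitochondrial membrane. Complexes I to IV pass electrons from NADH and succinate to oxygen by way of coenzyme Q and cytochrome c, complexes I, III and IV pump protons as they do so, and complex V, the ATP synthase, uses the returning protons to make ATP. Most subunits are encoded in the nucleus and imported, whereas a small core is encoded by the mitochondrial genome. The growing oocyte gathers a large store of mitochondria that is inherited by the embryo, and it relies on pyruvate supplied by the surrounding granulosa cells as a fuel for respiration.

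Oocytes came from wild-type C57BL/6 mice, of the substrain C57BL/6Babr by the methods, and were hand-picked after enzymatic digestion of the ovary, washed free of somatic cells and sorted by diameter. RNA-seq comprised duplicate libraries, named A and B, at each of 4 sizes (10–30 μm, 40–45 μm, 50–55 μm, 60–65 μm), every library from a pool of many oocytes, and 1 column of values described fully grown GV oocytes, for which it is not stated whether libraries were pooled. By the list of libraries, females were aged 5–7, 7–10, 10–15 and 12–18 days in order of size and 20–21 days for GV oocytes, and the methods text gives slightly different ranges for all but the smallest class. Size and age cannot be told apart. RRBS, which samples CpG-rich sequence, was in duplicate for the 3 larger size classes, and PBAT, which samples the whole genome, was done once at 60–65 μm. Nothing states that duplicates came from separate mice, so that p-values measure the spread between these libraries, which may be technical.

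RNA levels are given in RPKM, which divides the reads of a gene by its exon length and by the size of the library. A level is thus a share of the library, and a lower RPKM does not say that an oocyte held fewer molecules. From the steps between low values, the relative depth of the 9 columns lay between 1 and 1.996, with library A at 10–30 μm the shallowest. The 12 oocyte marker genes summed to 3921 and 3995 RPKM at 10–30 μm and to 3015 and 3200 RPKM at 60–65 μm, and 7 of them fell and 2 rose by the test described below. The 12 granulosa markers summed to 2.19 and 2.61 RPKM at 10–30 μm and to 8.03 and 7.34 RPKM at 60–65 μm. Foxl2 was at no more than 0.0642 RPKM in any library. Nr5a2 alone was at 1.29 and 1.73 RPKM at first and 4.805 and 4.6 RPKM at last. Cyp19a1 went from 0.161 and 0.159 RPKM to 1.255 and 1.044 RPKM. Nr5a2, Cyp19a1 and Inha were the 3 tested of this list, and all 3 rose. Cyp19a1 and Inha passed the filter described below only through larger size classes. The 5 endothelium markers summed to 1.14 and 1.24 RPKM at first and to 5.98 and 5.42 RPKM at last, nearly all of it from Pecam1 and Tek. Pecam1 and Tek were the 2 tested of this list, and both rose. Cdh5 was at no more than 0.0101 RPKM in the growing libraries. The 9 theca and stroma markers went from 3.93 and 2.83 RPKM to 1.19 and 1.17 RPKM. Most of the first sum came from collagen genes. These were Col1a1 at 1.625 and 1.163 RPKM, Col3a1 at 1.164 and 0.796 RPKM and Col1a2 at 0.818 and 0.538 RPKM. They were the 3 tested of this list, and all 3 fell, passing the filter described below only through smaller size classes. The 5 blood markers in the table summed to between 0.260 and 0.498 RPKM, and the theca marker Cyp17a1 was at 0 in both 10–30 μm libraries and the blood marker Lyz2 in 5 of 8. These sums move with size, and their part in the results below was not tested.

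One pair of duplicates stood apart for these genes. At 10–30 μm, 75 of the 85 members tested were higher in library A than in library B, by a median of 0.33 on the log2 scale, whereas the median over all 10518 genes tested was 0.03. In the other size classes the median of the members differed between A and B by between -0.06 and 0.07. The medians over growth of all members and of each complex are therefore given also without either of its libraries, and the differences of members described singly where their call did not hold.

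The members differed widely in level, and the major cytochrome oxidase genes led. Complex IV had the highest median over its genes, at 16.8 RPKM as the mean of the 9 columns, followed by complex V at 12.35, complex III at 11.6, complex II at 9.56, complex I at 7.95 and the complex I assembly factors at 4.79 RPKM. The difference between neighbours in this order was small beside the range within each complex. Complex I alone ran from 35.0 RPKM for Ndufb11, a membrane-arm subunit, to 0.942 RPKM for Ndufb2. The exon lengths of these 2 genes were 908 and 5628 bp, and how far exon length sets the order of levels was not tested. Cox4i1, the ubiquitous form of cytochrome oxidase subunit 4, had the highest level of all at 72 RPKM. It was followed by Atp5a1, the alpha subunit of the catalytic head of the ATP synthase, at 49.8 RPKM and by Cox5b at 41.6 RPKM. At the low end stood the tissue-restricted forms of complex IV, of which Cox8b was at 0 in every column and Cox7b2 was at 0 in 6 of 9 columns.

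**Figure D1:**
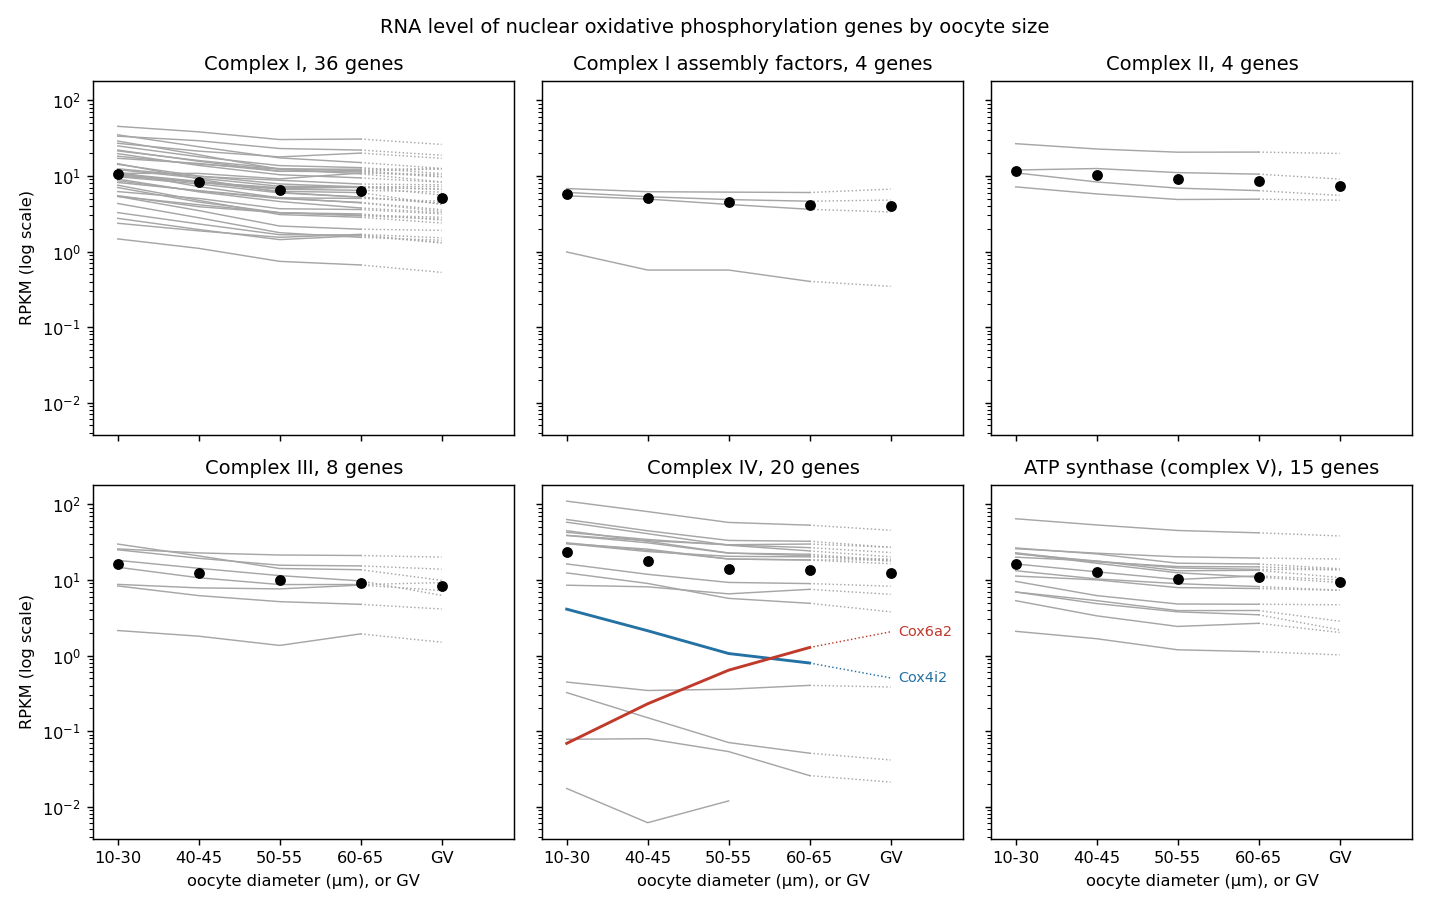
RNA level of the members by size class, 1 panel per complex. Each line is a gene, plotted as mean RPKM of the class on a log axis, with the unreplicated GV column last; most lines slope downwards from 10–30 μm, and the summed level of subunits and assembly factors went from 1512 to 885 RPKM.

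Over the whole of growth, from 10–30 to 60–65 μm, the members fell almost as a body. Of the 90 members, 85 passed the filter of at least 0.5 RPKM in 2 of the 8 growing libraries and were tested. Of these, 73 fell and 3 rose, at an adjusted p of 0.05 (limma on log2 of RPKM plus 0.1, Benjamini-Hochberg over all genes tested). Among all 10518 genes tested, 31.7% fell and 31.6% rose. Cox6a2, which rose, passed the filter only through its larger size classes, and Ndufaf1 and Atp5s, which fell, only through smaller ones. The median difference of the 85 members was -0.74 on the log2 scale, against 0.00 over all genes tested, and 81 of 85 differences were negative. Without library A at 10–30 μm, 67 members fell and the median was -0.59, and without library B 76 fell and the median was -0.93. Summed over the 87 subunits and assembly factors, the level went from 1512 ± 187 RPKM at 10–30 μm to 885 ± 17.5 RPKM at 60–65 μm (SD, n = 2), a ratio of 1.71, and libraries A and B at 10–30 μm gave 1644 and 1380 RPKM.

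The members have short transcripts, and short genes as a group were lower at the end of growth. Their median exon length was 1756 bp, against 4293 bp over all genes tested that had a length. Of the 2667 genes tested with an exon length within the range of the middle 50% of the members, 40.0% fell and 28.3% rose, with a median of -0.16. The members' share that fell was 85.9%. A further 22 members have a near-identical copy elsewhere in the genome, such as a processed pseudogene, between which reads can be split. Of these, 21 fell, with a median of -0.72, and of the 63 tested members with no such copy 52 fell and 3 rose, with a median of -0.74.

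**Figure D2:**
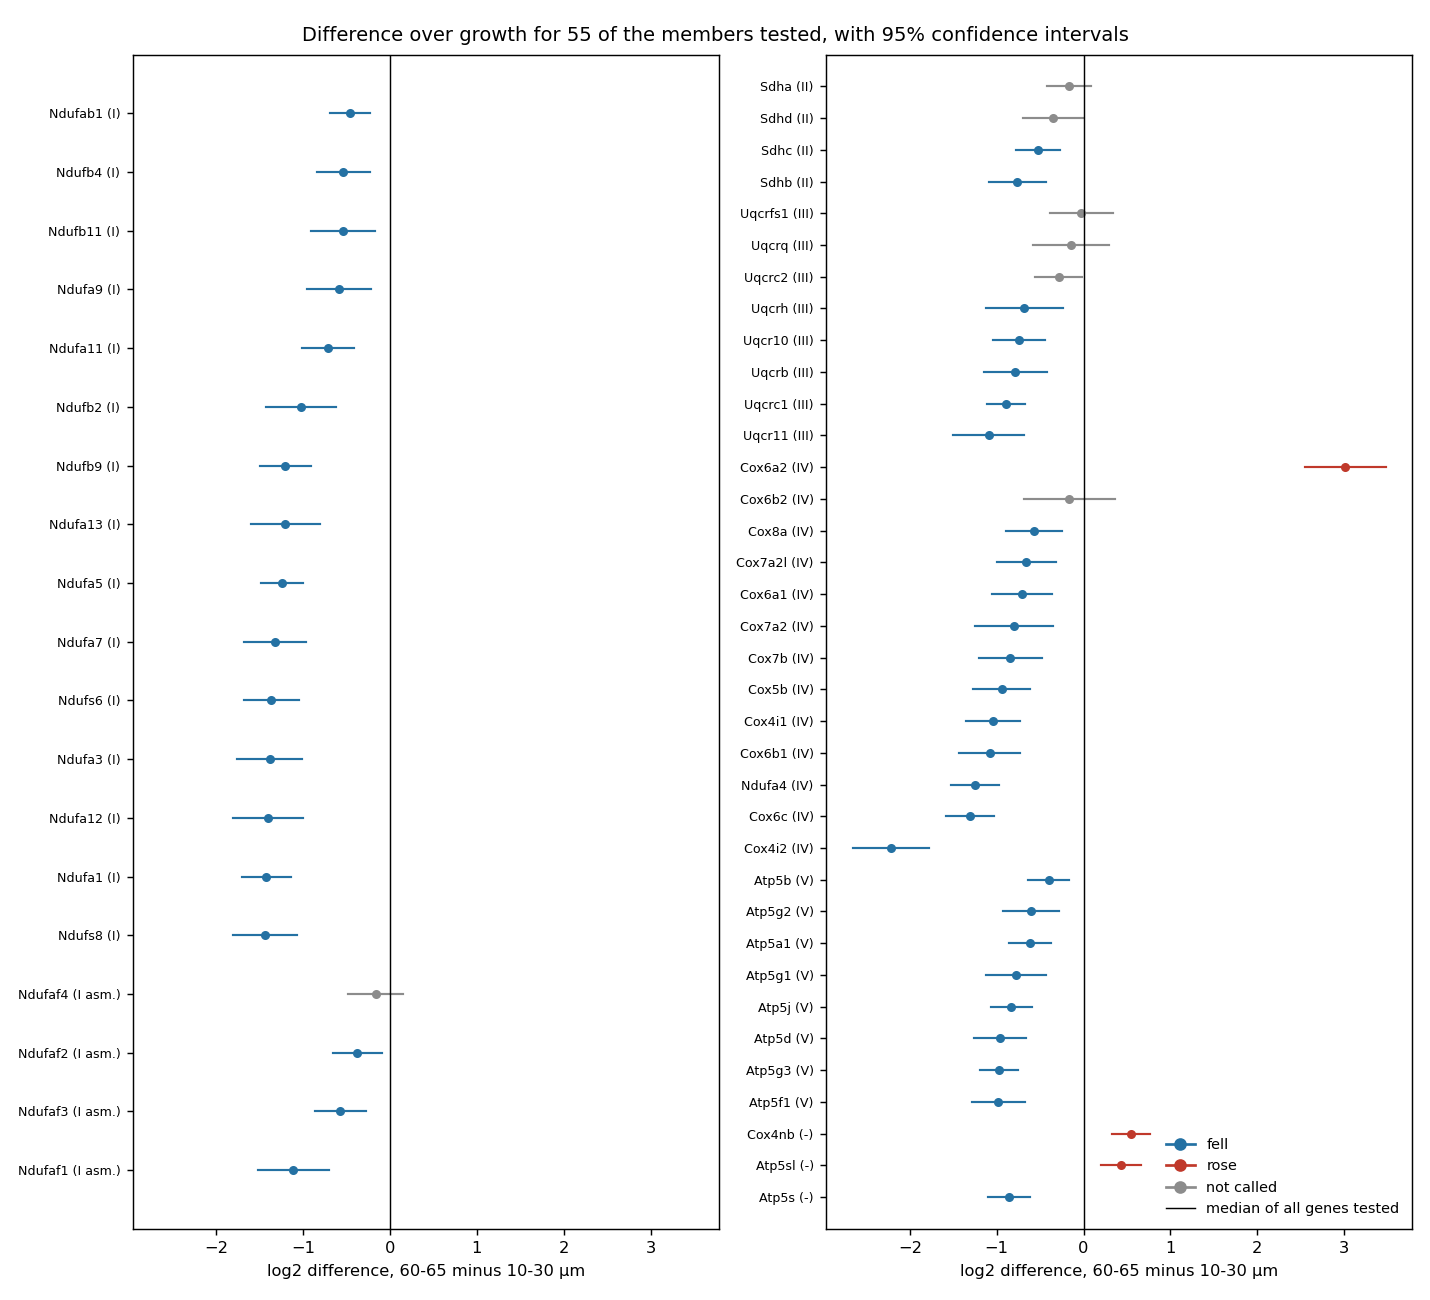
Difference between 60–65 and 10–30 μm of 55 of the 85 members tested, chosen by the rule for named genes, on the log2(RPKM + 0.1) scale, with 95% confidence intervals and grouped by complex. Most lie below 0, with Cox4i2 the lowest at -2.22 and Cox6a2 the highest at 3.02.

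Complex I takes electrons from NADH and hands them to coenzyme Q. All but 2 of its 36 members fell, with a median of -0.84. Without library A at 10–30 μm 31 fell, with a median of -0.70, and without B 35 fell, with a median of -0.98. Among the core subunits that carry its cofactors, Ndufs8 fell by 1.44, Ndufv1 by 0.86, Ndufs1 by 0.83 and Ndufs7 and Ndufv2 by 0.73 each on the log2 scale. Ndufs8, which holds a pair of iron-sulphur clusters, had the lowest value of the 36 subunits, next to Ndufa1 at -1.43. It stood at 16.7 and 12.4 RPKM at 10–30 μm, 8.57 and 9.64 at 40–45 μm, 5.94 and 6.18 at 50–55 μm, then 4.94 and 5.51 at 60–65 μm. Its size classes did not overlap, and the difference over growth was -1.44 (SE 0.16, adjusted p = 0.000112, limma).

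The accessory subunits of complex I, which surround this core, fell over a wide range. Ndufa1, a small membrane subunit, had the largest difference among them. Its levels were 30.8 and 27.0 RPKM at 10–30 μm, 19.8 and 18.4 at 40–45 μm, 12.5 and 11.9 at 50–55 μm, then 10.1 and 11.2 at 60–65 μm, a difference of -1.43 (SE 0.12, adjusted p = 3.03e-05, limma). Every class lay below the class before it, without overlap. Ndufa12, Ndufa3, Ndufs6, Ndufa7, Ndufa5, Ndufb9 and Ndufa13 fell by between 1.40 and 1.21 on the log2 scale. Ndufs6 is a zinc-binding subunit, and Ndufa13 is also known as the interferon-linked protein Grim19.

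At the other end were 2 subunits that did not pass the test. Ndufa8, an intermembrane-space subunit with cysteine motifs, stood at 10.4 and 11.2 RPKM at 10–30 μm, 9.71 and 11.9 at 40–45 μm, 8.50 and 9.78 at 50–55 μm, then 11.5 and 10.4 at 60–65 μm. Its classes overlapped, and its difference of 0.01 had a 95% confidence interval from -0.25 to 0.28. Ndufb3 stood at 12.4 and 8.26 RPKM at 10–30 μm and 7.19 in both libraries at 60–65 μm, with a difference of -0.48 (adjusted p = 0.0662, limma), and passed under 4 of the alternatives tried, among them without library B at 10–30 μm (-0.84, adjusted p = 0.00176). The assembly factors, which help to build complex I without staying in it, had a median of -0.47, or -0.36 and -0.63 without A or B at 10–30 μm. Ndufaf1, Ndufaf2 and Ndufaf3 fell, by 1.11, 0.38 and 0.57, and Ndufaf4 gave -0.16 (adjusted p = 0.328, limma). Ndufaf1 could be tested only through its smaller size classes. Without library A at 10–30 μm, Ndufaf2 gave -0.29 and Ndufb11 -0.35, with adjusted p of 0.108 and 0.0824, so that their calls did not hold.

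Complex II links the citrate cycle to the respiratory chain and is the only complex made from nuclear genes alone. Here 2 of 4 subunits fell, with a median of -0.44. Without A or B at 10–30 μm, 2 and 3 fell, with medians of -0.35 and -0.64. Sdha, the flavoprotein that oxidises succinate, stood at 10.7 and 13.2 RPKM at 10–30 μm, 11.6 and 13.5 at 40–45 μm, 10.5 and 11.6 at 50–55 μm, then 10.9 and 10.2 at 60–65 μm. The classes overlapped, and the difference was -0.17 (95% confidence interval -0.43 to 0.09). Sdhb, the iron-sulphur subunit, stood at 12.1 and 9.86 RPKM at 10–30 μm and 6.57 and 6.21 at 60–65 μm and fell by 0.76 (adjusted p = 0.00202). Of the membrane anchors, Sdhc fell by 0.53 (adjusted p = 0.00341) and Sdhd gave -0.35 (adjusted p = 0.0665, limma).

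Complex III passes electrons from coenzyme Q to cytochrome c, and 5 of its 8 members, all with Uqcr names, fell, with a median of -0.71. Without A or B at 10–30 μm, 4 and 6 fell, with medians of -0.49 and -0.94. Uqcrc1 and Uqcrc2 encode the paired core proteins, and only one of them passed the test. Uqcrc1 stood at 17.7 and 18.6 RPKM at 10–30 μm, 13.5 and 15.1 at 40–45 μm, 10.99 and 11.8 at 50–55 μm, then 9.33 and 10.1 at 60–65 μm, without overlap, and fell by 0.89 (SE 0.10, adjusted p = 8.94e-05, limma). Uqcrc2 stood at 27.4 and 24.1 RPKM at 10–30 μm and 20.1 and 21.98 at 60–65 μm, a difference of -0.28 (adjusted p = 0.0636), which passed the threshold under 5 of the alternatives tried. The difference between the 2 genes was not tested. Uqcrfs1, the Rieske iron-sulphur protein, lay between 6.79 and 9.42 RPKM in all 8 libraries with overlapping classes, and its difference of -0.02 had an interval from -0.39 to 0.34. Among the small subunits Uqcr11, Uqcrb, Uqcr10 and Uqcrh fell, by 1.10, 0.79, 0.74 and 0.68, and Uqcrq gave -0.15 (adjusted p = 0.525). The call of Uqcrh did not hold without library A at 10–30 μm (-0.43, adjusted p = 0.0705).

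Complex V is the ATP synthase, and all 15 of its members fell, by between 0.40 and 1.03 on the log2 scale, with a median of -0.69. Without A or B at 10–30 μm, 14 and 15 fell, with medians of -0.51 and -0.92, and without library A at 60–65 μm 12 fell. Atp5b, the beta subunit that forms the catalytic sites, fell least. It stood at 27.1 and 24.6 RPKM at 10–30 μm, 22.3 and 22.9 at 40–45 μm, 20.3 and 20.1 at 50–55 μm, then 19 and 19.95 at 60–65 μm (-0.40, SE 0.10, adjusted p = 0.00897, limma). Its call did not hold without library A at 60–65 μm, where it gave -0.35 (adjusted p = 0.0753). Atp5a1, its partner in the catalytic head, fell by 0.61, from 67.5 and 61.5 RPKM to 41.3 and 42.7 RPKM. The largest fall was that of Atp5o, which encodes the stalk protein that confers sensitivity to oligomycin, from 25.2 and 19.95 RPKM to 10.6 and 11.2 RPKM (-1.03, SE 0.14, adjusted p = 0.000297).

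Complex IV reduces oxygen to water, and its nuclear subunits hold the widest spread. Of 15 tested, 13 fell, 1 rose and 1 was not called, with a median of -0.80, or -0.65 and -1.07 without A or B at 10–30 μm. Cox4i1 stood at 121 and 99.5 RPKM at 10–30 μm, 76.3 and 84.1 at 40–45 μm, 61.0 and 54.3 at 50–55 μm, then 54.6 and 51.6 at 60–65 μm, and fell by 1.05 (SE 0.14, adjusted p = 0.000262, limma). Neither of its 10–30 μm libraries overlapped with any later one. Cox6c and Ndufa4, both small subunits, fell by 1.31 and 1.25. Cox5a, which binds the matrix side of the enzyme, had the smallest difference among those that fell, at -0.37 (adjusted p = 0.0144), and its call did not hold without library B at 60–65 μm (-0.29, adjusted p = 0.119).

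Several complex IV subunits have alternative genes, one used widely and another in particular tissues, and these went different ways. Cox4i2, the form of subunit 4 known from lung and from low oxygen, had the largest fall of all members. It stood at 3.61 and 4.598 RPKM at 10–30 μm, 1.66 and 2.59 at 40–45 μm, 0.961 and 1.17 at 50–55 μm, 0.736 and 0.856 at 60–65 μm and 0.506 in the GV column. No size class overlapped with the next, and the difference over growth was -2.22 (SE 0.19, adjusted p = 3.07e-05, limma). Its share of the summed RPKM of Cox4i1 and Cox4i2 went from 3.66% ± 1.08 to 1.48% ± 0.213 (SD, n = 2), so that Cox4i1 made up nearly all of subunit 4 RNA throughout. The share in library B was above that in A in each class.

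Cox6a2, the heart and skeletal muscle form of subunit 6a, was the only subunit gene that rose. Its levels were 0.0612 and 0.0765 RPKM at 10–30 μm, 0.253 and 0.207 at 40–45 μm, 0.788 and 0.492 at 50–55 μm, 1.39 and 1.17 at 60–65 μm and 2.06 in the GV column. These levels were recovered as 4 and 8, 25 and 26, 61 and 50, 96 and 139, and 269 reads. The tolerance was 0.02 of a read for the lowest counts and widened with the count, so that the higher counts are approximate. The smallest number of reads that fitted was taken, so that the true counts could be a multiple of these. On these counts the first class rests on few reads. Every size class lay above the one before, and the difference over growth was 3.02 on the log2(RPKM + 0.1) scale (SE 0.20, adjusted p = 1.15e-05, limma). With no filter on low values, so that its testing did not depend on its larger size classes, the difference was 3.02 as well (adjusted p = 0.000144). The size of its difference depended on the pseudocount, between 1.08 and 4.03 over the alternatives tried. Its share of Cox6a1 and Cox6a2 together was 0.226% ± 0.0230 at 10–30 μm and 6.52% ± 1.06 at 60–65 μm (SD, n = 2), and 10.1% in the GV column.

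**Figure D3:**
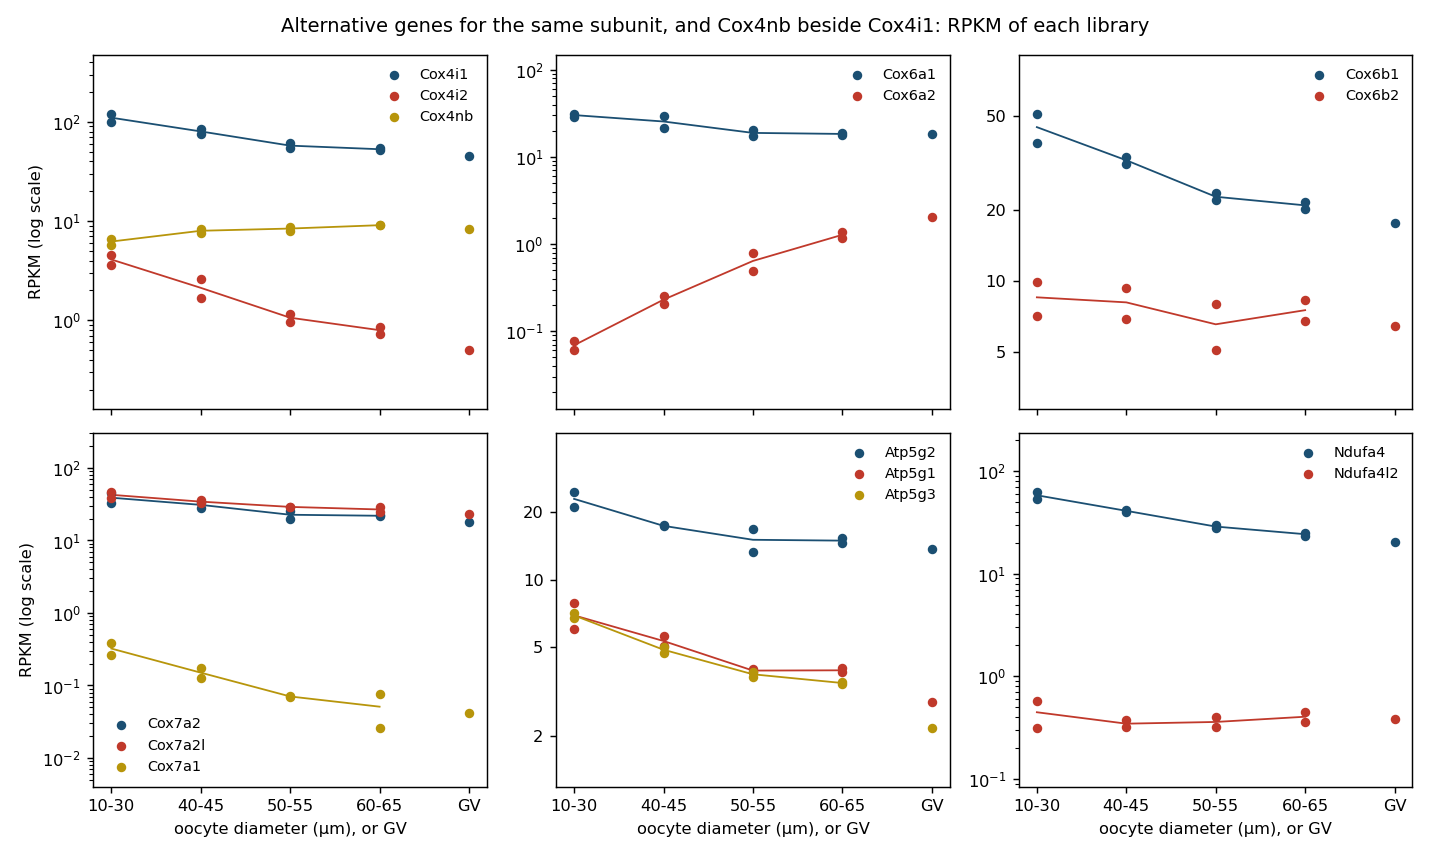
RPKM of each library for alternative genes of the same subunit, and for Cox4nb beside Cox4i1, with 1 point per library and size class. Cox4i2 goes down and Cox6a2 goes up from class to class, whereas the classes of Cox6b2 overlap.

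Cox6b2, a form of subunit 6b known from testis, lay between 5.11 and 9.93 RPKM in all 8 libraries with overlapping classes, and its difference of -0.16 had an interval from -0.69 to 0.36. Its share of Cox6b1 and Cox6b2 was 16.4% ± 5.87 at 10–30 μm and 26.5% ± 3.68 at 60–65 μm, while Cox6b1 itself fell by 1.08. Cox7a2 and Cox7a2l, of which the latter acts in the joining of complexes III and IV, fell by 0.80 and 0.66, and Cox7a2l made up between 51.0 and 58.7% of the 3 genes in all libraries. The muscle form Cox7a1 was recovered as 14 and 15 reads at 10–30 μm and 1 and 5 reads at 60–65 μm and was too low to be tested. Atp5g1, Atp5g2 and Atp5g3 encode the same mature ring protein of the ATP synthase, and all fell, by 0.78, 0.61 and 0.97. Atp5g2 supplied 62.2 and 62.4% of their RPKM at 10–30 μm, 67.3 and 66.3% at 60–65 μm and 73.1% in the GV column. The exon lengths of Atp5g1, Atp5g2 and Atp5g3 were 4912, 1675 and 2181 bp, so that shares between genes depend on the lengths used.

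Of the 3 genes named after a complex that do not encode a subunit of it, 2 rose and 1 fell. Cox4nb, an older symbol of the membrane protein complex gene Emc8, stood at 5.79 and 6.66 RPKM at 10–30 μm, 7.57 and 8.42 at 40–45 μm, 8.03 and 8.81 at 50–55 μm, then 9.08 and 9.12 at 60–65 μm, and rose by 0.55 (SE 0.10, adjusted p = 0.00127, limma). Atp5sl rose by 0.43 (adjusted p = 0.00594), from 2.04 and 2.17 RPKM to 2.92 and 2.81 RPKM. Atp5s fell by 0.86, from 0.888 and 0.983 RPKM to 0.455 and 0.480 RPKM, with no overlap between neighbouring classes. It passed the filter only through smaller size classes, and with no filter it gave -0.86 (adjusted p = 0.00105, limma).

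Cox4nb and Cox4i1 lie head to head on chromosome 8 of GRCm38, on opposite strands. Cox4nb spans positions 120653914 to 120668112 on the minus strand and Cox4i1 spans 120668290 to 120674209 on the plus strand, so that their starts are 178 bp apart while one rose and the other fell. In all, 30 members other than this pair have a gene outside the set on the opposite strand with its start within 1000 bp. Of these 30 neighbours, 20 were tested over growth, of which 7 fell, 3 rose and 10 were not called, with a median of -0.12, where 31.7% of all genes tested fell and 31.6% rose. Among the members beside these 20 neighbours, 16 fell. Rps28, a ribosomal protein gene 29 bp from Ndufa7, fell by 1.47, and Eef1b2, an elongation factor gene 3 bp from Ndufs1, fell by 0.94. By contrast Phf14, 363 bp from Ndufa4, gave -0.05 (adjusted p = 0.759), and Vmac, 63 bp from Ndufa11, rose by 0.52 (adjusted p = 0.0169). Uqcrq shares its start region with Gdf9, the oocyte growth factor, at a distance of 192 bp. Gdf9 lay between 419 and 580 RPKM in the 8 libraries and rose by 0.36 (adjusted p = 0.0192, limma), whereas Uqcrq lay between 1.15 and 2.35 RPKM.

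The sequence before the starts of the members was read to see what they share. RefSeq promoters (GRCm38.p6, 250 bases before to 50 bases from the start) were matched for 71 of the 90 members. Those not matched included Ndufs1, Sdhc, Cox4i2, Atp5f1, Atp5sl, Uqcrc2, Cox6a2, Cox4nb, Cox4i1, Ndufa4l2, Uqcrq, Atp5s, Cox8c, Uqcrb, Cox6c, Ndufb9, Ndufa2 and Atp5a1. They were searched on both strands for the core motifs of factors known for respiratory genes, which are CGCATGCG for NRF1, CCGGAAGT for ETS factors such as GABP, and AAGATGGC for YY1. The 3 motifs do not contain one another. The following promoters are shown because they span the range of the results, with 2 YY1 matches among members that fell furthest, an NRF1 and an ETS match in a complex III member that fell, an NRF1 match in Ndufa8, which was not called, and no match in Cox6b2, also not called. Capitals mark the matches, and base 251 is the start.

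Ndufs6 (chr13:73328433-73328732, minus strand): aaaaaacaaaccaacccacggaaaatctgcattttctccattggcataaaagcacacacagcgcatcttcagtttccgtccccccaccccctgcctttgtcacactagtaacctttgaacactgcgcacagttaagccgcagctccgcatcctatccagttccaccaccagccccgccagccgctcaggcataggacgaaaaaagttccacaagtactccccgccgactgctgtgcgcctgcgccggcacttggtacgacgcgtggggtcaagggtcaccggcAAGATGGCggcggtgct
Ndufa3 (chr7:3617123-3617422, plus strand): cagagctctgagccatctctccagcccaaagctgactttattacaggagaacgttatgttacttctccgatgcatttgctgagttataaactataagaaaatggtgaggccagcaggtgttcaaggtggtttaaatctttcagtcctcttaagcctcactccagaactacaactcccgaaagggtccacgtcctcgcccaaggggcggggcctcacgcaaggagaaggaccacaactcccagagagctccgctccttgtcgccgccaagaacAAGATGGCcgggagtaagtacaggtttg
Uqcr11 (chr10:80406772-80407071, minus strand): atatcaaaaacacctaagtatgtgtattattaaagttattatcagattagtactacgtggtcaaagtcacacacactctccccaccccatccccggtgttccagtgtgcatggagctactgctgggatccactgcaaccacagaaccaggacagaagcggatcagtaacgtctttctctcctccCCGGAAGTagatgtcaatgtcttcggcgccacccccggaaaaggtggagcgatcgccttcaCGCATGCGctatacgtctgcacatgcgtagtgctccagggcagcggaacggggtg
Ndufa8 (chr2:36049289-36049588, minus strand): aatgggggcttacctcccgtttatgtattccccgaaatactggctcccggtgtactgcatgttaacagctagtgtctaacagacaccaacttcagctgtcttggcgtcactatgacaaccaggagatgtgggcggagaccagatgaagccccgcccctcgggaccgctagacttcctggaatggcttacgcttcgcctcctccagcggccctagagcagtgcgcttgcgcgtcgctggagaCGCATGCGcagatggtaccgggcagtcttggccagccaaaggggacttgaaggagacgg
Cox6b2 (chr7:4753045-4753344, minus strand): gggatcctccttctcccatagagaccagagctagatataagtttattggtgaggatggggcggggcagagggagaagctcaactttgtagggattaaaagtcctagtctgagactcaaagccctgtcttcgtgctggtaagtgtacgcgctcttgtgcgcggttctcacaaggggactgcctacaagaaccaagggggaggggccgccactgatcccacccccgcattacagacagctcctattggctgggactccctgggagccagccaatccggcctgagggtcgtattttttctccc

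With the start base counted as 0, the YY1 letters begin at 33 in Ndufs6 and at 22 in Ndufa3, the NRF1 letters at -5 in Uqcr11 and at -9 in Ndufa8, and the ETS letters at -66 in Uqcr11. The NRF1 motif was found in 10 of 71 members (14.1%), against 2.07% of the promoters of 27025 genes. For YY1 the share was 9 of 71 (12.7%) against 3.19%, and for ETS 5 of 71 (7.04%) against 4.31%. At least 1 motif was found in 22 members (31.0%), against 9.03% of genes, and the members had a median of 19 CpGs per promoter against 8. Of the 9 members with a YY1 motif, 7 were among the 32 complex I members with a promoter (21.9%). On the strand of the gene the members held 9 YY1 matches. Of these, 8 (88.9%) began after the start, between 22 and 38 bases from it. Over all promoters, with both strands counted, 39.5% of the matches began anywhere after the start, so that the shares are not measured alike. None of these matches was weighed for CpG content, and a match is a run of letters, not a bound site.

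Most members fell both with and without a match. Of the 22 with a motif 20 fell, with a median of -0.70, and of the 46 tested members without one 41 fell, with a median of -0.79. All 9 with a YY1 motif and 8 of 10 with an NRF1 motif fell, with medians of -0.77 and -0.66. The difference between these groups was not tested. Among the regulators themselves, Nrf1 rose by 0.93, from 3.33 and 3.29 RPKM to 6.79 and 6.02 RPKM (adjusted p = 9.64e-05, limma). Gabpa and Gabpb2, subunits of the ETS factor GABP, fell by 0.81 and 0.76, while Gabpb1, a further subunit, gave 0.14 (adjusted p = 0.318). Gabpa lies head to head with the member Atp5j, which fell by 0.83. Yy1 gave -0.19 (adjusted p = 0.383). The coactivator Ppargc1b rose by 1.73, from 0.167 and 0.358 RPKM to 1.23 and 0.901 RPKM. It passed the filter only through the larger classes, and with no filter it gave 1.73 (adjusted p = 0.00352). Ppargc1a stayed at or below 0.0167 RPKM in the growing libraries and was not tested. Of the 9 regulators tested, 2 fell and 3 rose, close to the shares over all genes, the third being the mitochondrial RNA polymerase gene Polrmt, and Tfam, which packs mitochondrial DNA, gave -0.18 (adjusted p = 0.174).

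Other genes of the pathway went both ways, where 31.7% of all genes tested fell and 31.6% rose. Of 24 assembly and cofactor genes tested, 12 fell and 4 rose, with a median of -0.41. Lyrm7 and Bcs1l, which act in maturation of the Rieske protein, fell by 1.43 and 1.23. Bcs1l and Foxred1, also among the 12, passed the filter only through smaller size classes, and with no filter they gave -1.23 and -1.41 (adjusted p = 0.000333 and 0.000457, limma). By contrast Sdhaf1, an assembly factor of complex II, rose by 0.85, from 3.003 and 2.97 RPKM to 5.59 and 5.28 RPKM. Cox10 and Cox11, which supply heme and copper to complex IV, and Atpaf1, which acts on complex V, rose by 0.36, 0.49 and 0.42. Of 10 genes of coenzyme Q synthesis, Coq5, Coq6 and Coq7 fell and Coq2 and Pdss2 rose. Atpif1, the inhibitor of the ATP synthase, and Usmg5, its small partner, fell by 0.89 and 1.18. Of the electron carriers, the testis cytochrome c gene Cyct rose by 0.66, from 0.676 and 0.576 RPKM to 1.15 and 0.954 RPKM, and the somatic gene Cycs gave 0.13 (adjusted p = 0.522). Most subunits encoded by the mitochondrial genome went the same way as most nuclear ones, with 10 of 13 transcripts called as lower, 0 as higher and a median of -1.25. The 13 together stood at 1795 and 2032 summed RPKM at 10–30 μm and 576 and 750 at 60–65 μm. The transcript mt-Nd6 was not lower, at 2.79 and 3.38 RPKM at 10–30 μm and 2.84 and 5.38 RPKM at 60–65 μm.

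Taken between neighbouring classes, in a fit with no replicate block, members passed the test in the first 2 of the 3 steps. From 10–30 to 40–45 μm, 16 members fell and 2 rose, against 10.2% and 12.9% of all genes tested. The share of members that fell was 18.8%, and their median was -0.29, against -0.01 over all genes. From 40–45 to 50–55 μm, 10 fell and 1 rose, against 3.35% and 5.71% of all genes, with a median of -0.37. These counts depended on single libraries: the first was 1 without A and 54 without B at 10–30 μm, 1 and 4 without A or B at 40–45 μm, and between 8 and 10 without a library of a larger class. The second was 42 or 43 without a 10–30 μm library, 3 and 0 without A or B at 40–45 μm, 0 without either at 50–55 μm and 2 without either at 60–65 μm. The share of all genes that fell moved as well, in the first step between 2.86 and 13.2% and in the second between 0 and 7.07% when a library was left out. They also moved with the processing, to 34 and 16 without scaling, 28 and 24 after quantile normalization, 13 and 2 with no filter on low values, and 1 and 19 with only the 2 classes compared in the fit. The medians kept their sign without each library. The steps share size classes, and whether a member moved more in one than in another was not tested.

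**Figure D4:**
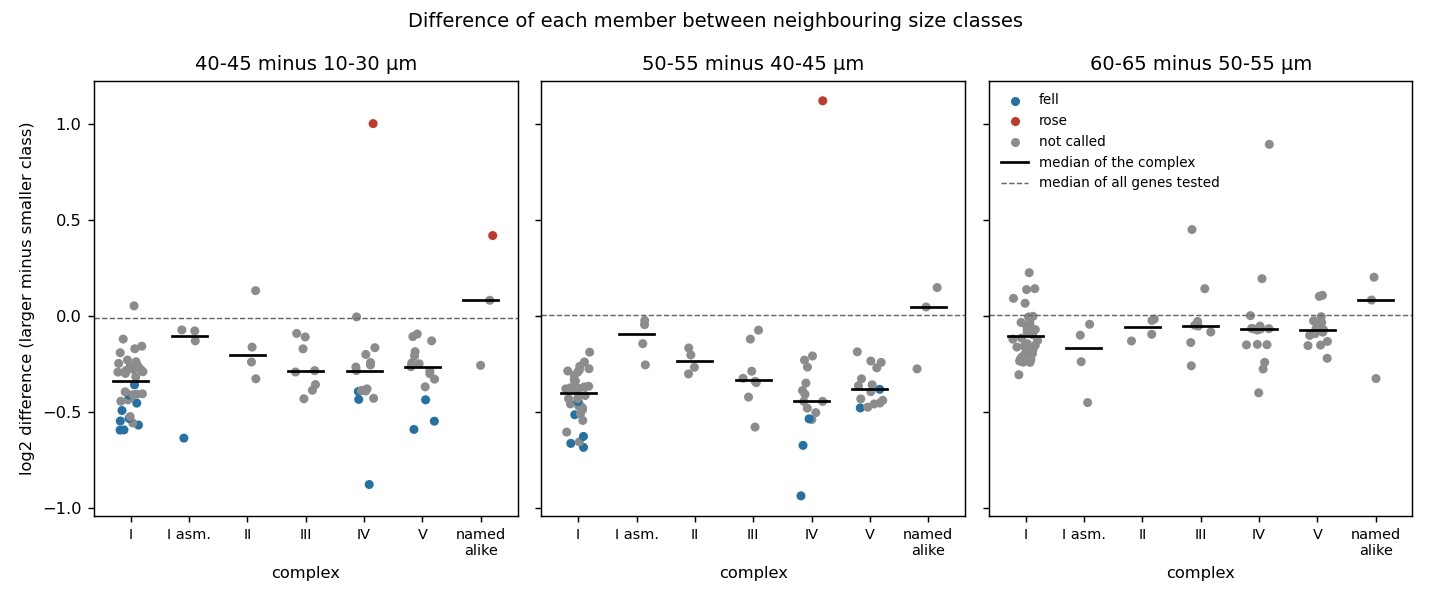
Difference of each member between neighbouring size classes on the log2(RPKM + 0.1) scale, by complex, 1 panel per step. The medians are -0.29, -0.37 and -0.08 in order of size, and Cox6a2 lies above 0 in every panel.

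Ndufs6, Ndufa3, Ndufa1, Ndufa5, Ndufb9, Cox6c, Ndufa4, Cox4i2 and Atp5g3 fell in both of these steps, by 0.59 and 0.63 for Ndufs6 and by 0.39 and 0.68 for Cox6c. Ndufs6 stood at 8.29 and 6.78 RPKM at 10–30 μm, 4.25 and 5.25 at 40–45 μm, 3.02 and 3.14 at 50–55 μm, then 2.87 and 2.80 at 60–65 μm, so that its classes did not overlap. Atp5j, the coupling factor of the ATP synthase stalk, fell in the second step and not in the first. Cox6a2 rose in both steps, by 1.00 and 1.12, but in the second not when the filter on low values was left out (adjusted p = 0.0502). Cox4nb rose in the first by 0.42.

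From 50–55 to 60–65 μm no member passed the test and neither did any other gene (0% of 10518), under limma with no replicate block and Benjamini-Hochberg adjustment. At an unadjusted p of 0.05, 4 members were lower and 2 higher, against 701 lower and 742 higher among all genes. The median of the members was -0.08, and 71 of 85 were negative. The members past the unadjusted threshold were Ndufa5, Uqcrc1, Ndufaf1 and Atp5s, at -0.31, -0.26, -0.45 and -0.33, and Cox6a2 and Uqcrq, at 0.89 and 0.45.

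Most members were lower again in the GV column, which has no replicate and was not tested. Over the 81 members of at least 1 RPKM, the median difference between GV and the mean of 60–65 μm was -0.15, against 0.02 over 8818 genes, and 69 of 81 (85.2%) were lower, against 45.8%. Set against both 60–65 μm libraries, 67 members were below both, 6 between them and 8 above both. Without library B at 60–65 μm, 55 of 81 were lower, and without A 71. The lowest were Atp5g3 (2.19 RPKM in GV, 3.42 and 3.51 at 60–65 μm) and Uqcrc1 (6.26, against 9.33 and 10.1), at -0.60 and -0.59, followed by Ndufa11, Uqcr11 and Atp5g1. Cox6a2 was the highest, at 0.69, and Ndufaf4, Uqcr10, Ndufb4 and Atp5sl followed, at between 0.18 and 0.09.

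DNA methylation at the starts of the members was low in every library. Within 500 bp of the start, with at least 5 positions of at least 5 reads, between 68 and 75 members were measured per RRBS library, and their medians lay between 0.313 and 0.545% in the 6 libraries. Differences between size classes in methylation were not tested. In the PBAT library the median was 3.09% over 87 members, against 3.46% over 17537 other genes. Only Cox6a2, Atp5d and Cox8b were at 10% or more, which is 3.45% of the members, against 11.9% of the other genes. Among genes tested for RNA the shares were 2.38 and 6.63%.

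Cox6a2, the subunit gene that rose, was the one member whose start went past 10% in RRBS. At 60–65 μm this is 1.33 and 1.39% of the members measured, against 1.89 and 1.97% of the other genes. It lies on the minus strand of chromosome 7 (128205436 to 128206366, GRCm38), inside Itgad on the plus strand, an integrin gene at or below 0.00447 RPKM in every column. The mean over 6 positions was 1.10 and 0.892% at 40–45 μm, 5.65 and 1.75% at 50–55 μm, then 18.7 and 18.9% at 60–65 μm, and the PBAT value at 60–65 μm was 32.7% over 23 positions. Of the calls at these positions, 7 of 628 and 16 of 1202 were methylated at 40–45 μm (95% Wilson intervals 0.541 to 2.28% and 0.821 to 2.15%), 36 of 587 and 10 of 466 at 50–55 μm (4.46 to 8.37% and 1.17 to 3.91%), and 87 of 486 and 100 of 705 at 60–65 μm (14.8 to 21.6% and 11.8 to 17.0%). These intervals cover counting error only, since PCR copies cannot be recognised. The means over positions did not overlap between classes in RRBS, but the interval of library B at 50–55 μm overlapped those at 40–45 μm.

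The 6 RRBS positions of Cox6a2 all lay downstream of the start, between 98 and 371 bp, within the gene. At 98 bp the values were 1.87 and 0% at 40–45 μm, 11.8 and 1.82% at 50–55 μm, then 18.3 and 26.6% at 60–65 μm. At 371 bp they were 0.730 and 2.93%, 3.77 and 3.33%, and 11.7 and 8.59%. At 185 bp they were 0 and 0%, 5.88 and 0%, and 17.6 and 33.3%, and at 203 bp 1.41 and 0%, 1.47 and 0%, and 27.5 and 34.9%. The classes of 40–45 and 50–55 μm overlapped at each position but that at 371 bp. The larger classes overlapped at 112 bp, where the values at 60–65 μm were 14.8 and 4.35% and library A at 50–55 μm was at 9.09%. At 342 bp the values at 60–65 μm were 22.1 and 5.64%, against at most 3.51% in the smaller classes. Upstream of the start RRBS had no position and PBAT had few, so that the values describe the first part of the gene. RNA and methylation were thus both higher at 60–65 μm in this gene, and whether they are linked was not tested.

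**Figure D5:**
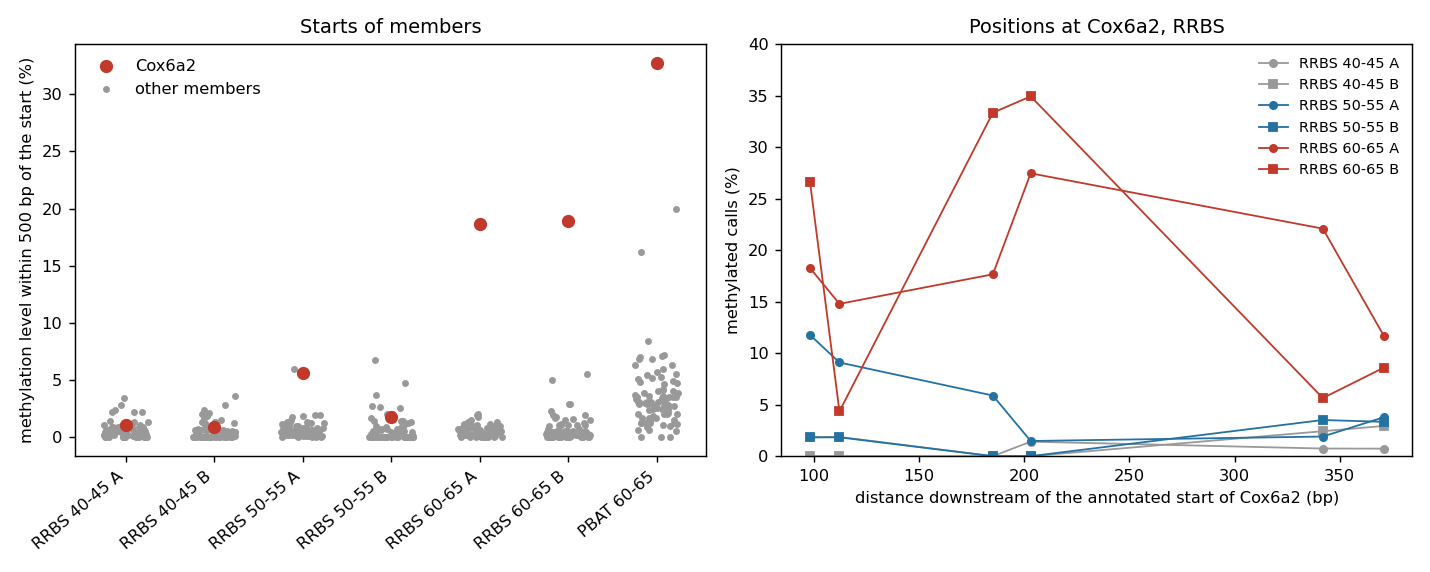
Methylation level (%) within 500 bp of the starts of members in each library (left), and at the 6 RRBS positions of Cox6a2 by distance from its start (right). The members lie near 0 in RRBS with medians of at most 0.545%, and Cox6a2 stands at 18.7 and 18.9% at 60–65 μm.

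Away from their starts the members were methylated to a middling level. In the PBAT library, 59 members had at least 10 positions from 1000 bp downstream of the start to the end of the gene, with a median of 42.7%. The range was from 3.03% in Atp5e, a small subunit of the ATP synthase, to 71.8% in Ndufb7. Over 18694 other genes the median was 25.1%, but among genes tested for RNA it was 42.8% for 57 members and 47.7% for 9234 other genes. RRBS covered the bodies of no more than 8 members in a library. Atp5o, which spans 247 kb in the table of genes, was measured in all 6 libraries over between 200 and 288 positions. Its exon length is 2259 bp, and whether other genes lie within the span was not examined. The values therefore describe the span as a whole. They were 1.41 and 1.38% at 40–45 μm, 6.81 and 7.996% at 50–55 μm, then 11.5 and 13.6% at 60–65 μm, without overlap between classes. Ndufa9, over between 16 and 24 positions, stood at 3.04 and 4.85%, 8.53 and 6.44%, and 22.2 and 26.1% in the same order, also without overlap. Atp5f1, over between 13 and 22 positions, stood at 0.920 and 0.511%, 2.02 and 0%, and 3.12 and 4.12%, so that its first 2 classes overlapped.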

How the data were processed

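Per the labels and the study's methods, the authors trimmed reads with Trim Galore (0.2.8 and 0.3.5), aligned strand-specific RNA-seq pairs with TopHat2 2.0.9 and RRBS and PBAT reads with Bismark (0.10.0 and 0.14.0) to GRCm38, as listed in the submitters' processing notes. The RNA-seq table deposited by the authors holds RPKM per gene, and whether Cufflinks or SeqMonk made it is not stated. The methylation files deposited by the authors hold the percent methylated and the counts of methylated and unmethylated calls at each CpG cytosine, between 30000113 and 99039028 calls per library. For RRBS, in which PCR copies cannot be recognised, counts overstate the number of molecules.

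Differences of RNA were tested with limma 3.58.1 (R 4.3.3, empirical Bayes with a trend) on log2 of RPKM plus 0.1 after trimmed-mean scaling (30% by ratio and 5% by level, factors 0.956 to 1.05), over genes that reached 0.5 RPKM in 2 or more of 8 libraries, with a single fit of the 4 class means. Benjamini-Hochberg adjustment ran over all 10518 genes, with a threshold of 0.05. The fit was checked on simulated data. Fold changes on this scale understate those of low genes. Methylation was computed again from counts of calls at positions of at least 5 reads. Near-identical copies were sequences of at least 95% identity over at least 50% of the coding sequence of a member (blastn 2.17.0+). The members, the other gene lists, the motifs, the neighbours and the copies were chosen with earlier results of these data known. Members named are up to 12 per direction with the largest differences in each comparison, the 2 highest and 2 lowest of each complex, alternative forms of a subunit, complexes II and III, and the 5 highest and lowest in GV. The core subunits of complex I, Ndufa8, Ndufb3, Cox5a, Atp5o, Atp5e, Ndufb7, the promoters shown, neighbours, genes of other lists and members with a changed call were singled out after their values were seen. The alternatives changed the pseudocount, filter, scaling, block, variance trend, libraries, coverage minimum and window. Python 3.11.15 with pandas 2.3.3 and matplotlib 3.10.9 was used for tables and figures. The values of 1 item are not reported here.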

Additional observations from a re-analysis of the deposited data

How the results depend on the processing

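Over the whole of growth the counts of members that fell and rose kept within 1.5 times their value under every alternative run, with between 64 and 76 that fell and 3 that rose when 1 library was left out and medians from -0.93 to -0.59. The size of the median thus depended on the 10–30 μm libraries. For single named members, 909 of 930 alternatives kept direction and side of the threshold, 11 lost the call and 10 gained it (Sdhd and Uqcrc2). The lost calls were those of Ndufaf2, Ndufb11, Uqcrh, Atp5b, Cox8a and Ndufa9 without a library at 10–30 or 60–65 μm. Of the other members described singly, 8 were followed over growth, of which Cox5a lost its call without library B at 60–65 μm and Ndufb3 gained one under 4 alternatives. No direction of a called value was reversed. Leaving out members with a near-identical copy, chosen after seeing the data, kept all counts within 1.5 times.

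The first 2 steps were not stable in count, and the cause was not tested. From 10–30 to 40–45 μm, between 1 and 54 members fell and between 0 and 2 rose when 1 library was left out, with medians from -0.50 to -0.15. In this step 34 fell without scaling, 28 fell and 1 rose after quantile normalization, and 1 rose with a pseudocount of 1 or a filter of 2 RPKM. With only the 2 classes compared in the fit, 1 fell and 0 rose. From 40–45 to 50–55 μm, between 0 and 43 fell and between 0 and 1 rose when 1 library was left out. In this step 16 fell without scaling, 24 after quantile normalization, 2 with no filter on low values and 19 with only the 2 classes compared, and 0 rose with no filter, with a filter of 2 RPKM or with only the 2 classes. Of all genes called, 58.3% fell in the first step without scaling, against 44.2%, and 48.1% in the second after quantile normalization, against 36.9%. Median levels were between 7.33 and 8.15 RPKM for complex I and between 10.9 and 11.9 RPKM for complex III when 1 library was left out.

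Replicate letters were not taken as pairs, since no source gives them a meaning. Deviations of same-lettered libraries correlated at 0.60, 0.59 and 0.67 among the first 3 classes and at -0.23, -0.03 and 0.11 with the 60–65 μm class. With the replicate letter as a block, 32 members fell in the first step, where 14.5% of all genes fell, 36 fell in the second, where 7.77% did, and 1 rose in the third, where 80 of all genes fell and 165 rose.

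Median methylation at members' starts in RRBS was 0.335% within 250 bp at 40–45 μm. At 60–65 μm it was 0.347% from 1 read, 0.492% from 10 reads and 0.499% within 1000 bp. In PBAT it was 2.38% from 10 reads, 3.35% within 1000 bp and 2.56% within 250 bp, and the median of bodies was 41.6% from 10 reads. Within 250 bp no member measured reached 10% in RRBS at 60–65 μm. Cox6a2 was not measured there, since it had fewer than the 5 positions needed. Its positions at 98, 112, 185 and 203 bp stood at between 4.35 and 34.9% at 60–65 μm. A depth recovered as 4 and 8 reads limits the first values of Cox6a2, and the 2 libraries per class limit every other value.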
